A study of Mus musculus with 136 samples.

Results

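The genes described here are 39 mouse genes of the antioxidant and glutathione defense: 3 superoxide dismutases (Sod1, Sod2, Sod3), catalase and 5 glutathione peroxidases (Cat, Gpx1, Gpx3, Gpx4, Gpx7, Gpx8), 6 peroxiredoxins (Prdx1 to Prdx6), 8 genes of the thioredoxin and glutaredoxin system (Txn1, Txn2, Txnrd1, Txnrd2, Srxn1, Glrx, Glrx3, Glrx5), 4 of glutathione synthesis and recycling (Gclc, Gclm, Gss, Gsr), 7 glutathione transferases (Gstp1, Gsta4, Gstm1, Gstm5, Gsto1, Mgst1, Mgst3), and the Nrf2 sensor pair with inducible enzymes (Nfe2l2, Keap1, Nqo1, Hmox1). Hmox2, the constitutive heme oxygenase, was listed with this last group. The 39 genes were chosen by gene symbol for their known roles, with earlier results of these data known. All 39 were present among the 47643 genes of the count table. The comparisons ask whether transcripts of this defense differed in embryos and visceral yolk sacs exposed to maternal diabetes.

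Superoxide dismutases convert superoxide to hydrogen peroxide, which catalase, glutathione peroxidases and peroxiredoxins remove. Glutathione peroxidases such as Gpx1 and Gpx4 draw on glutathione. It is made by glutamate-cysteine ligase (Gclc and Gclm) and glutathione synthetase (Gss) and kept reduced by Gsr. Most peroxiredoxins are recharged through thioredoxin and its reductases. The transcription factor Nrf2, encoded by Nfe2l2, is held back by Keap1 and under oxidant stress raises transcripts such as Hmox1, Nqo1, Gclc, Gclm, Srxn1 and Txnrd1. Oxidant stress has long been discussed as a route by which maternal diabetes disturbs early development, and the visceral yolk sac is the tissue through which the embryo is nourished before the placenta functions.

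RNA was sequenced from single embryos and the visceral yolk sac of the same conceptus, dissected at day 8.5 of gestation (E8.5) from NOD mice, a strain in which some females become diabetic spontaneously. All dams and sires were of the NOD strain, the diabetic dams were hyperglycemic before mating, and the sires were normoglycemic. The 4 groups of each tissue were embryos with 5 to 6 somite pairs from normal (n = 17, 10 litters) and diabetic pregnancies (n = 17, 9 litters), and embryos with 7 to 9 somite pairs from normal (n = 16, 7 litters) and diabetic pregnancies (n = 16, 6 litters, with 7 conceptuses from 1 litter). Glucose at euthanasia was 105 to 164 mg/dl in normal dams and 423 to 595 mg/dl in diabetic dams, with 1 diabetic litter above the meter's range. Both sexes were present in each group. Littermates share a dam, so that the 16 or 17 conceptuses of a group are not independent exposures.

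The 66 embryo and 66 yolk sac libraries held 1017901 to 5658850 counts of unique molecular identifiers (median 2302819). The tissue labels were checked on markers. The summed normalized count of 10 visceral endoderm genes was 96.3 to 3362 in embryos and 10370 to 53510 in yolk sacs, and that of 6 neural plate genes was 689 to 2141 in embryos and at most 97.2 in yolk sacs. Embryo libraries thus held some visceral endoderm transcripts, at a mean of 1.30% to 4.87% of the yolk sac level for single markers. There were 4 repeat libraries, left out of all comparisons. The 35 or 36 members with at least 10 counts in both libraries differed from the original by a median of 0.051 to 0.196 on the log2 scale. Their largest differences were 0.505 to 0.813. The largest of these was Gstm1 in 1 later diabetic embryo, with 76 counts in the original and 45 in the repeat. Below 10 counts some differences were larger, as for Sod3 in that embryo (7 and 0 counts) and Gpx7 in 1 early normal yolk sac (9 and 24). Levels below are normalized counts, that is, counts divided by a size factor per library set over all these libraries. Each tag stands for 1 molecule in this 3′ protocol, so gene length does not enter a comparison of levels between genes. A level in a whole embryo or yolk sac can differ because fewer cells of a type are present or because each cell holds less RNA, and these cannot be told apart.

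In later embryos from diabetic pregnancies 9 antioxidant transcripts were called higher when each embryo was counted as a sample, and fewer when the litter was taken into account. Of 35 members tested in embryos with 7 to 9 somite pairs, Prdx2, Gsta4, Gss, Gpx7, Prdx6, Gstm1, Glrx3, Txn2 and Sod1 rose, by 0.22 to 0.50 on the log2 scale (1.17-fold to 1.42-fold), and none fell (25.7% of the members tested, edgeR quasi-likelihood test, adjusted p below 0.05). Over all 10628 genes tested in the same comparison 9.09% were called, 5.2% higher and 3.89% lower. With the litter as a random block 3 of the 9 passed (Prdx2, Gsta4 and Prdx6), and with counts summed per litter none did (edgeR adjusted p 0.0505 to 0.181). Of the 16 diabetic embryos 7 came from 1 litter. The median log2 difference was 0.18 for the members and -0.01 for all genes. The members were also shorter, with a median transcript length of 1612 bases for the 9 called, 1662 for those not called and 3223 for all genes tested. With trends on transcript length and GC content removed from each library, 5 of the 9 passed and 475 of all genes were called by edgeR. The other 4 members, Sod3, Nqo1, Gstp1 and Mgst3, were too low in embryos for the test.

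Among the peroxiredoxins, Prdx2, an abundant cytosolic enzyme that removes hydrogen peroxide with the help of thioredoxin, had the lowest p of all members. Prdx2 (GRCm38 chr8:84969587-84974834, plus strand) ranged from 401 to 689 normalized counts in the 16 later normal embryos, with a median of 524. In the 16 later diabetic embryos Prdx2 ranged from 571 to 892, with a median of 663. The groups overlapped, but all 16 diabetic embryos lay above the normal median and 10 normal embryos lay below the lowest diabetic one. The log2 difference was 0.36 ± 0.07 (SE, edgeR adjusted p = 0.0019). Averaged by litter, all 6 diabetic litters exceeded all 7 normal litters (exact permutation test over litters, two-sided p = 0.00117, the smallest the 1716 splits allow, 0.0704 after adjustment over all genes). In this test 2056 of 10628 genes had a p below 0.05 and none passed after adjustment. How many of all genes separated the litters fully was not counted.

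Prdx6, a peroxiredoxin that also reduces phospholipid hydroperoxides (chr1:161240112-161251219, minus strand), ranged from 939 to 1406 normalized counts with a median of 1128 in later normal embryos. It ranged from 1075 to 1509 with a median of 1333 in later diabetic embryos. The shift was small, 0.22 ± 0.06 on the log2 scale (edgeR adjusted p = 0.019), with 15 of 16 diabetic embryos above the normal median. All 6 diabetic litter means exceeded all 7 normal ones (exact permutation p = 0.00117, 0.0704 after adjustment over all genes). As for Prdx2, the share of all genes with such a separation was not counted. The other 4 peroxiredoxins did not pass: Prdx1, the most abundant member in embryos, differed by 0.10 (95% interval -0.13 to 0.34), Prdx4 of the endoplasmic reticulum by 0.27, and the mitochondrial Prdx3 and Prdx5 by -0.20 and 0.13 on the log2 scale.

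Glutathione transferases couple glutathione to reactive compounds, and Gsta4 is the form that takes up 4-hydroxynonenal, a product of lipid peroxidation. Gsta4 (chr9:78182774-78209349, plus strand) ranged from 149 to 279 normalized counts with a median of 171 in later normal embryos, and from 176 to 303 with a median of 226 in later diabetic embryos. All 16 diabetic embryos were above the normal median. All 6 diabetic litter means were above all 7 normal ones (exact permutation p = 0.00117, 0.0704 after adjustment over all genes). The share of all genes with such a separation was not counted. The log2 difference was 0.40 ± 0.09 (edgeR adjusted p = 0.0041). Gstm1 (chr3:108012255-108017973, minus strand), a cytosolic transferase, ranged from 15.2 to 40.5 with a median of 26.6 in normal and from 24.3 to 64.1 with a median of 35.3 in diabetic later embryos. Its log2 difference was 0.50 ± 0.14 (edgeR adjusted p = 0.024), with 15 of 16 diabetic embryos above the normal median. Gstm1 is a yolk sac transcript foremost, and its embryo level was 6.77% of that of the yolk sac at this stage. Over 12 alternative settings the log2 difference of Gstm1 was 0.36 to 0.57 and passed in 8 (adjusted p 0.014 to 0.325), among them the visceral endoderm and erythroid covariates (0.43) but not the heart covariate, the litter block, the litter sums or the removal of length and GC trends. Without litter N28M05 its adjusted p was 0.0631. Gstm5, Gsto1 and Mgst1 differed by 0.16 to 0.22 on the log2 scale without passing the test.

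Glutathione synthesis showed 1 change. Gss, which adds glycine in the last step (chr2:155563181-155592810, minus strand), ranged from 11.1 to 29.3 normalized counts with a median of 21.3 in later normal embryos and from 19.9 to 43.1 with a median of 29.3 in later diabetic embryos. In 8 of 16 diabetic embryos Gss lay above the highest normal one, and the log2 difference was 0.49 ± 0.12 (edgeR adjusted p = 0.011). The share of all genes set apart to that degree was not counted. Gss did not pass with the litter as a random block or with counts summed per litter. The subunits of glutamate-cysteine ligase, which catalyses the limiting step, did not follow. Gclc, the catalytic subunit, had medians of 157 in normal and 138 in diabetic later embryos, a log2 difference of -0.16 (95% interval -0.32 to -0.00, edgeR adjusted p = 0.18). Gclm, the modifier subunit, differed by -0.04 (95% interval -0.20 to 0.12). Gsr, which returns oxidized glutathione to its reduced form, varied from 12.7 to 91.0 normalized counts among later embryos, and its log2 difference was -0.39 with an interval of -0.87 to 0.08.

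In the thioredoxin and glutaredoxin system 2 of 8 members rose. Glrx3, a glutaredoxin of iron-sulfur cluster handling (chr7:137437614-137468594, plus strand), had a median of 336 normalized counts (289 to 635) in later normal and 455 (325 to 617) in later diabetic embryos. The normal group held the single highest embryo, so that no diabetic embryo exceeded all normal ones, although 15 of 16 exceeded the normal median. The log2 difference of Glrx3 was 0.34 ± 0.10 (edgeR adjusted p = 0.027). Txn2, the mitochondrial thioredoxin (chr15:77915047-77929006, minus strand), had a median of 251 (198 to 340) in later normal and 305 (232 to 475) in later diabetic embryos, a log2 difference of 0.28 ± 0.08 (edgeR adjusted p = 0.029). With each litter left out in turn, Glrx3 and Txn2 each passed in 8 of 13 fits. Glrx3 did not pass without litter D28M31, D28M36, N28M03, N28M05 or N28M07 (highest adjusted p 0.078), and Txn2 did not without D28M23, D28M36, N28M03, N28M05 or N28M07 (highest 0.0704). Glrx, the cytosolic glutaredoxin, lay just outside the threshold with 0.44 ± 0.15 (edgeR adjusted p = 0.053). The cytosolic Txn1 and its reductase Txnrd1 differed by -0.14 and -0.05, the latter with an interval of -0.18 to 0.08. Txnrd2 did not pass, with medians of 26.1 in normal and 28.9 in diabetic later embryos.

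Of the superoxide dismutases, Sod1, the cytosolic copper-zinc enzyme (chr16:90220754-90226329, plus strand), ranged from 1189 to 2160 normalized counts with a median of 1461 in later normal embryos and from 1193 to 2794 with a median of 1841 in later diabetic embryos. The groups overlapped widely, with 13 of 16 diabetic embryos above the normal median, and the log2 difference was 0.32 ± 0.10 (edgeR adjusted p = 0.039). With each litter left out in turn Sod1 passed in 4 of 13 fits, those without D23M26, D24M15, N28M06 or N28M30 (adjusted p over the 13 fits 0.0205 to 0.088). Sod1 is also the shortest transcript of the 9, at 641 bases, and once trends on transcript length and GC content were removed from each library its difference was 0.09 (edgeR adjusted p = 0.449). Sod2, the mitochondrial enzyme, had medians of 173 in normal and 159 in diabetic later embryos, a log2 difference of -0.14 (95% interval -0.36 to 0.08).

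Among catalase and the glutathione peroxidases 1 of 6 genes rose. Gpx7, a peroxidase of the endoplasmic reticulum (chr4:108400390-108406961, minus strand), ranged from 12.1 to 31.7 normalized counts with a median close to 21 in later normal and from 19.5 to 39.8 with a median of 28.4 in later diabetic embryos, a log2 difference of 0.46 ± 0.12 (edgeR adjusted p = 0.016). The secreted Gpx3 missed the threshold with 0.37 ± 0.12 (edgeR adjusted p = 0.0501). Cytosolic Gpx1 had medians of 590 and 727 in normal and diabetic later embryos, a log2 difference of 0.25 (95% interval 0.07 to 0.44, edgeR adjusted p = 0.076). Catalase, the peroxisomal enzyme, differed by 0.19 (95% interval 0.03 to 0.34, edgeR adjusted p = 0.11). Gpx4, which reduces lipid peroxides in membranes, was counted at only 5.56 to 124 normalized counts among later embryos, and its log2 difference of -0.55 had an interval of -1.13 to 0.02. Gpx8 did not pass, with medians of 38.2 in normal and 43.0 in diabetic later embryos.

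**Figure D1:**
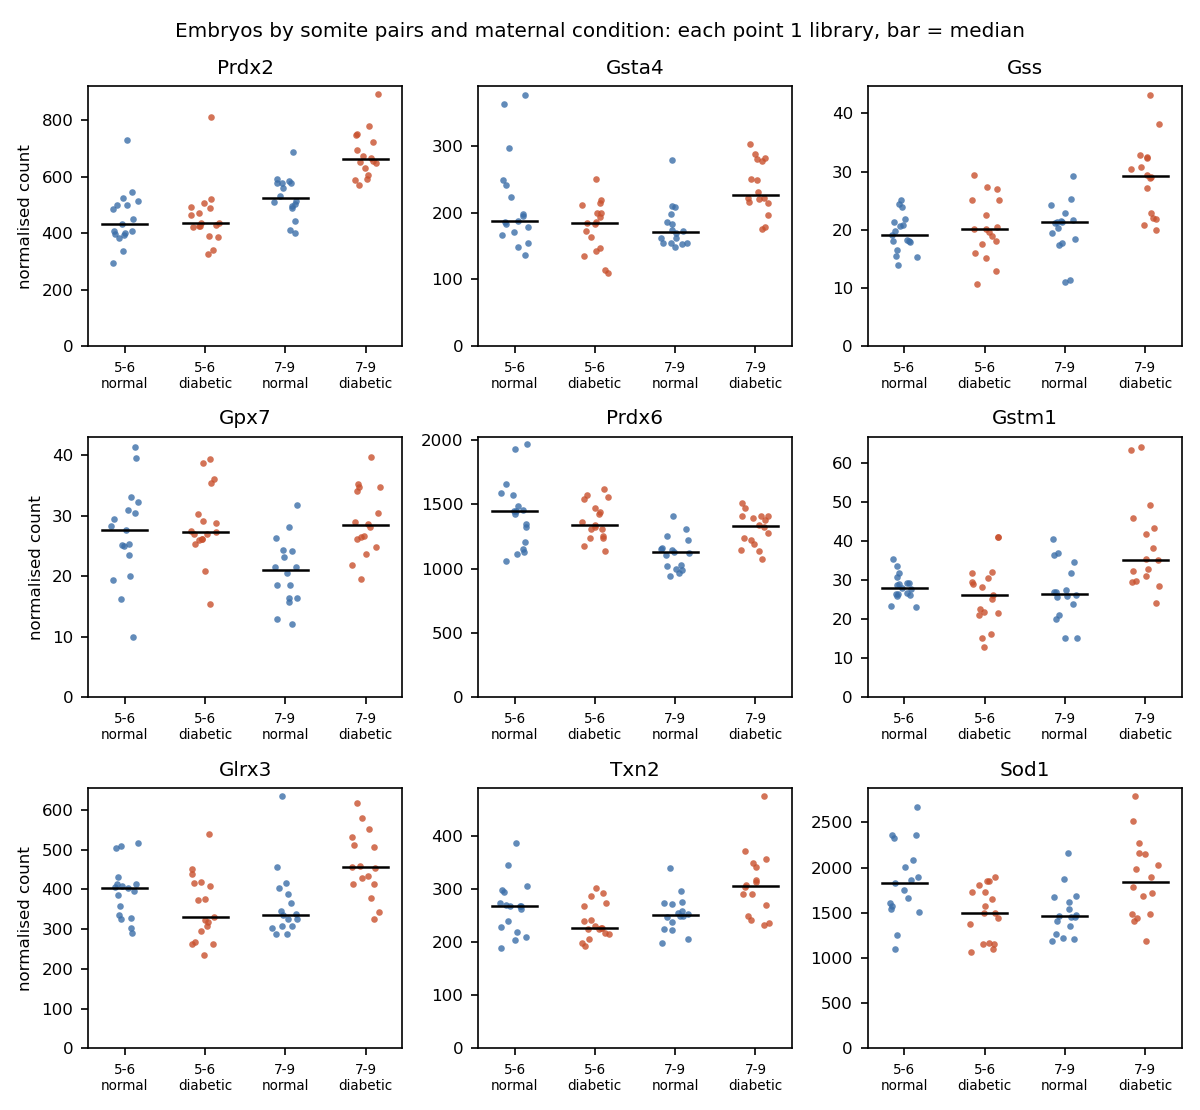
Normalized counts (vertical axes, starting at 0) of the 9 members that rose in later embryos from diabetic pregnancies, in all 66 embryo libraries. Each point is 1 embryo and each bar a group median, with blue for normal and red for diabetic pregnancies. The medians of the 2 groups with 5 to 6 somite pairs lie close together or with the diabetic group lower, while at 7 to 9 somite pairs the diabetic median is the higher one in each panel, for example 663 against 524 for Prdx2.

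The sensor pair and the inducible enzymes of the Nrf2 response did not pass the test in later embryos. Nfe2l2 had medians of 63.8 normalized counts in normal and 62.1 in diabetic later embryos, and its log2 difference was 0.10 (95% interval -0.13 to 0.32). Keap1 differed by 0.13 (95% interval -0.06 to 0.32). Hmox1, the inducible heme oxygenase and one of the most responsive Nrf2 targets in many cells, had medians of 50.8 (17.5 to 106) and 68.5 (39.3 to 136), a log2 difference of 0.37 with an interval of -0.02 to 0.75 (edgeR adjusted p = 0.21). Nqo1, a quinone reductase used as a marker of Nrf2 activity, was nearly absent, with no more than 5.02 normalized counts in any later embryo, and was not tested. Srxn1, which rescues over-oxidized peroxiredoxins, differed by -0.01 (95% interval -0.28 to 0.26). The 95% interval lay inside 1.5-fold in either direction for 27 of the 35 members tested.

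**Figure D2:**
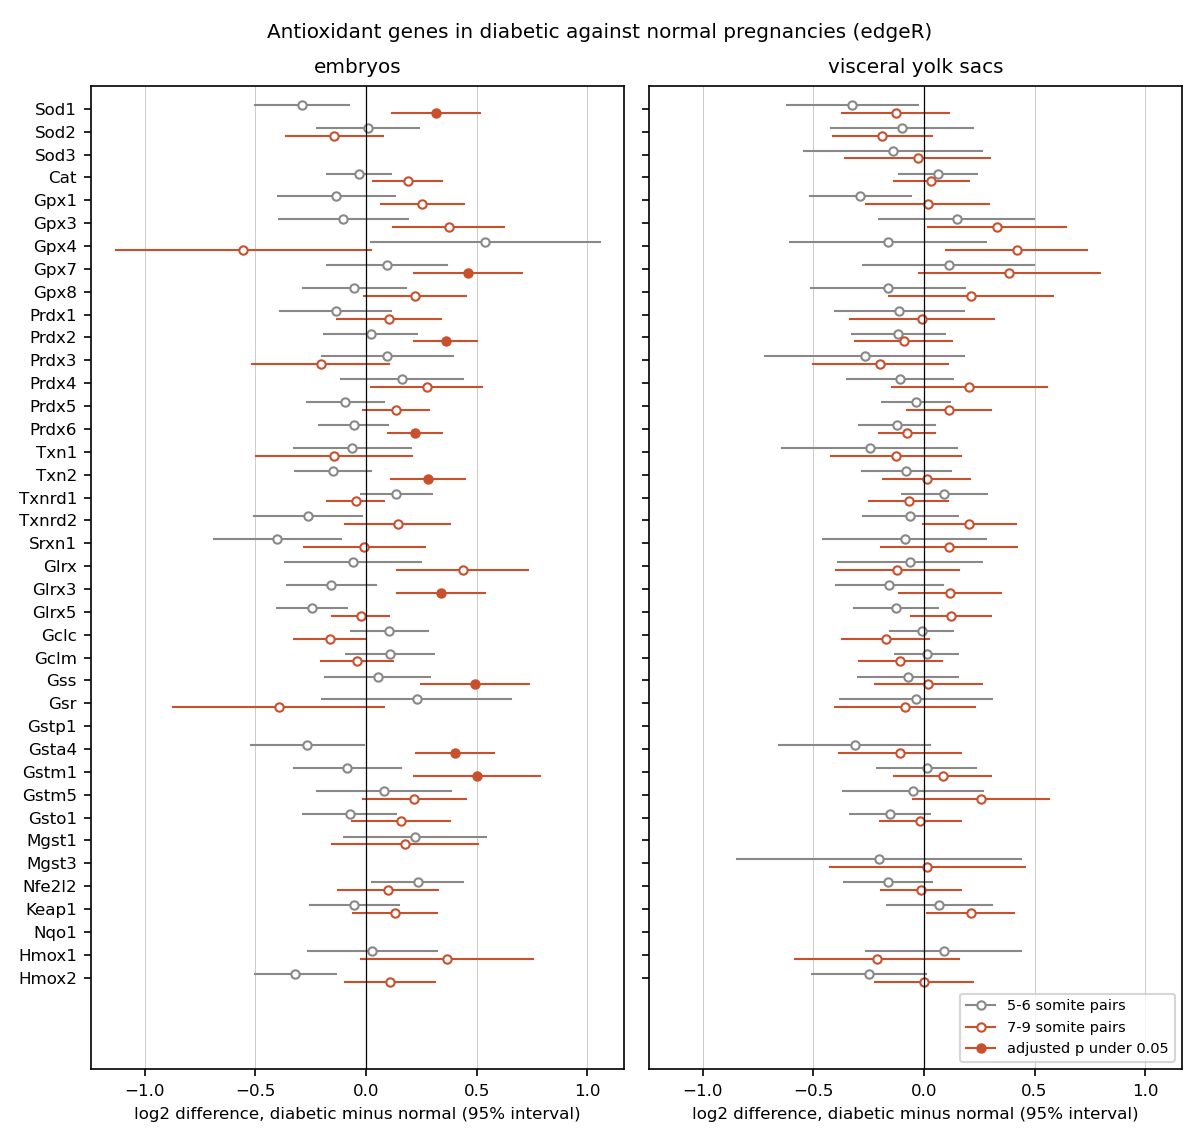
Log2 difference between diabetic and normal pregnancies with its 95% interval (horizontal axis) for each member tested, in embryos (left) and visceral yolk sacs (right), grey at 5 to 6 and red at 7 to 9 somite pairs. Filled points passed an edgeR adjusted p of 0.05: 9 in later embryos and none elsewhere. Members with no symbol had too few counts for the test.

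Promoter sequences were searched for a spelling of the antioxidant response element, the DNA element bound by Nrf2. The letters TGACNNNGC, called the motif here, were searched on both strands in 300-base windows of RefSeq promoters. These windows (GRCm38.p6, 250 bases before to 50 bases after a gene start) were at hand for 33 of the 39 members. Other spellings, such as TGAGTCAGC in the windows of Gstp1 and Srxn1, were not counted. The motif was present in 8 of these 33 members (24.2%) and in 14% of the 27025 genes with a window. The 8 were Sod1, Prdx1, Txnrd1, Gclm, Nfe2l2, Srxn1, Gstm5 and Mgst1. Of the 9 members that rose in later embryos, 7 had a window and 1 of these, Sod1, held the motif. Among the tested members that did not pass, 7 of 23 with a window held it. Windows were missing for Gsta4 and Prdx6, which rose, and for Gclc, Hmox1, Gsr and Sod3. The part of Nrf2 in the differences of these genes was not tested. The windows of Prdx1 and Gclm, both textbook Nrf2 targets that did not pass the test, and of Sod1 are shown with the motif in capitals (each lies on the opposite strand, so that it reads backwards as its complement here). They are chr4:116685349-116685648, chr3:122245307-122245606 and chr16:90220512-90220811, each on the plus strand. A match of letters is a description of the window and not evidence of binding.
Prdx1: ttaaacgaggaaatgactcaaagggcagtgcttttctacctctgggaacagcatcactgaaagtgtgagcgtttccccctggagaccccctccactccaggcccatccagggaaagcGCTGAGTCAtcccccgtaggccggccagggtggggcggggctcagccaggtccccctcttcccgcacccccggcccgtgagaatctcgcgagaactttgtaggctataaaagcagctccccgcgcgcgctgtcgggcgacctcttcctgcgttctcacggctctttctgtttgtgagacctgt
Gclm: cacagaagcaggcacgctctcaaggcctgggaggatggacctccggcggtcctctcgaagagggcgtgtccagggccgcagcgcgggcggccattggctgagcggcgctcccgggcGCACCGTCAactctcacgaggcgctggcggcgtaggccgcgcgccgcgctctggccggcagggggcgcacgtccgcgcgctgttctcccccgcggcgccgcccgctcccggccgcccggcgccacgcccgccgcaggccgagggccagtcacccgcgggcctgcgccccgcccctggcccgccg
Sod1: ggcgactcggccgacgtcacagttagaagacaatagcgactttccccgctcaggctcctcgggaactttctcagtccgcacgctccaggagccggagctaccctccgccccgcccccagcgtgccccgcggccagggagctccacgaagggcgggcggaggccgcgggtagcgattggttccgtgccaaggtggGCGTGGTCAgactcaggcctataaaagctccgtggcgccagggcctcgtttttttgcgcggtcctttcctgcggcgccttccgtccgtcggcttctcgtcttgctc

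Other genes of the pathway were called in later embryos in small numbers, against 5.2% of all genes called higher and 3.89% lower. Of 30 tested genes among other Nrf2 targets and NADPH suppliers 2 rose, Akr7a5 (log2 difference 0.64 ± 0.12, edgeR adjusted p = 0.00095) and Akr1a1 (0.23 ± 0.07), which encode aldo-keto reductases that clear aldehydes. Of 13 other glutathione genes 1 rose, Glo1 (0.29 ± 0.08), the glyoxalase that removes methylglyoxal, a by-product of glycolysis. Of 24 other thioredoxin, methionine sulfoxide and selenium genes 4 rose, with Selenow (0.57 ± 0.11), Selenom (0.50 ± 0.14) and Txndc12 (0.35 ± 0.10) the largest, and Selenos fell by 0.39 on the log2 scale. The fourth of these was Park7 (0.27 ± 0.06), which protects against oxidant stress. Neither of the 2 tested oxidant-producing enzymes passed the test, and the rest of the 17 on that list were too low to test.

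Of the cell type marker lists, only that of the heart held genes called in the same comparison. In later diabetic embryos 3 of 6 heart markers were higher, Myl7 (0.69 ± 0.12), Actc1 (0.39 ± 0.09) and Myl4 (0.38 ± 0.10 on the log2 scale), and the summed heart signal ranged from 1801 to 3157 normalized counts with a median of 2296, against 1197 to 2203 with a median of 1735 in later normal embryos. With the heart marker mean as a covariate, the log2 differences of the 9 members were 0.18 to 0.39 and none passed (adjusted p 0.0923 to 0.42, with 118 of all genes called by edgeR). Visceral endoderm markers had a median log2 difference of 0.52 with 0 of 8 called, and erythroid markers 1.23 with 0 of 3 called, the latter with 1 diabetic embryo at 4672 summed normalized counts. With both marker means as covariates 7 of the 9 members passed, and without that embryo all 9 did. The part of cell composition in these differences was not tested further. In the exact permutation test over litter means 12 of 35 members had a p below 0.05, as did 2056 of 10628 genes, and none passed after adjustment over all genes.

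**Figure D3:**
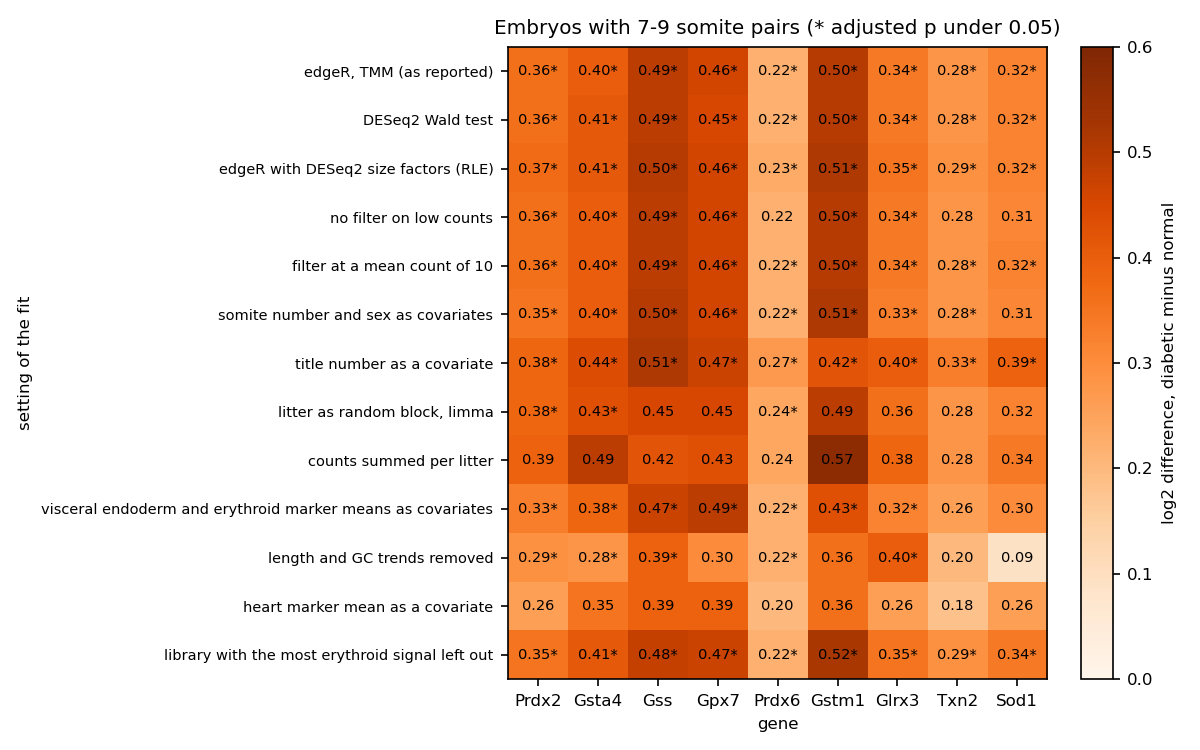
Log2 differences of the 9 members in embryos with 7 to 9 somite pairs (columns) in the reported fit and 12 other settings (rows), with an asterisk where the adjusted p was below 0.05. All values are above 0. The median of the 9 is lowest with the heart marker covariate (0.26, against 0.36 as reported), the lowest single value is Sod1 with length and GC trends removed (0.09), and asterisks are missing throughout with the heart marker covariate and with counts summed per litter.

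In embryos with 5 to 6 somite pairs no member passed the test under maternal diabetes. Of 35 members tested, 0 were called and 8 had an unadjusted p below 0.05 (edgeR), while DESeq2 called 1, Hmox2. Over all 11004 genes tested 1.46% were called, 0.591% higher and 0.872% lower. Hmox2, the constitutive heme oxygenase, ranged from 89.0 to 176 normalized counts with a median of 124 in normal and from 71.4 to 120 with a median of 96.6 in diabetic early embryos. Its log2 difference of -0.32 ± 0.09 had an edgeR adjusted p of 0.057, and all 9 diabetic litters lay below the normal litter median (exact permutation p = 0.030, 0.433 after adjustment over all genes, where 1170 of 11004 genes had a p below 0.05 and none passed). Glrx5, the mitochondrial glutaredoxin of iron-sulfur cluster assembly, had medians of 635 and 530 and a log2 difference of -0.24 (edgeR adjusted p = 0.088), also with all 9 diabetic litters below the normal litter median. How many of all genes had every diabetic litter below the normal litter median was not counted. Srxn1 followed with -0.40 (edgeR adjusted p = 0.11) and Sod1 with -0.29 (edgeR adjusted p = 0.12). Sod2, Cat, Gpx1, Gclc, Gsr, Keap1, Hmox1 and Txnrd1 had log2 differences between -0.13 and 0.23, and Nfe2l2 one of 0.23 (95% interval 0.03 to 0.44, edgeR adjusted p = 0.19). Gpx4 differed by 0.54, with an interval of 0.02 to 1.06. Of 30 other Nrf2 target and NADPH genes 3 fell in early embryos, Cbr1 (log2 difference -0.46 ± 0.11), Pgd (-0.33 ± 0.07), which supplies NADPH, and Akr1a1 (-0.27 ± 0.07), and of 24 other thioredoxin, methionine sulfoxide and selenium genes Oxr1 rose (0.46 ± 0.11, edgeR adjusted p = 0.027).

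The difference between the 2 stages was tested directly with an interaction term. In embryos the change under diabetes was more positive at 7 to 9 than at 5 to 6 somite pairs for 7 of 35 members and more negative for none (20.0% of the members tested, against 8.7% of 11304 genes, 4.35% more positive and 4.35% more negative). Each embryo was counted as a sample in this test, although littermates share a dam. Heart markers moved in the same direction, with 2 of 6 called and a median of 0.48 on the log2 scale, and their part in these differences was not tested. The 7 members were Gsta4 (0.68 ± 0.16 on the log2 scale, edgeR adjusted p = 0.0084), Sod1 (0.62 ± 0.15, adjusted p = 0.0095), Txn2 (0.45 ± 0.12, adjusted p = 0.017), Glrx3 (0.51 ± 0.14, adjusted p = 0.021), Gstm1 (0.60 ± 0.18, adjusted p = 0.033), Hmox2 (0.44 ± 0.14, adjusted p = 0.033) and Prdx6 (0.29 ± 0.10, adjusted p = 0.047). In early embryos Gsta4 had medians of 188 in normal and 184 in diabetic pregnancies, Sod1 1826 and 1499, Txn2 268 and 227, Glrx3 402 and 331. For each of these 4 the diabetic median was the lower one early and the higher one late. Prdx2, with the lowest p in later embryos, had early medians of 432 and 437 and an interaction of 0.36 that did not pass (edgeR adjusted p = 0.067). With length and GC trends removed, Gsta4 (0.49) and Glrx3 (0.58) still passed, the other 5 did not (Sod1 0.32, adjusted p = 0.073), and Gpx4 passed as more negative (-1.30, adjusted p = 0.046). The 7 alternatives of this test included the litter as a random block, but counts summed per litter were not tried. Gsta4 and Glrx3 passed in all 7, Sod1 and Txn2 in 6, Gstm1 in 5, Prdx6 in 4 and Hmox2 in 3.

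In visceral yolk sacs no member passed the test at either stage. With 5 to 6 somite pairs 0 of 36 members were called (2 with an unadjusted p below 0.05, lowest edgeR adjusted p 0.526), and 0% of 10250 genes were. With 7 to 9 somite pairs 0 of 36 were called (3 with an unadjusted p below 0.05, lowest edgeR adjusted p 0.364), against 0.0194% of 10317 genes. DESeq2 called no member at either stage, and edgeR called none of the other pathway genes. At the earlier stage 28 of 36 members had a negative and 8 a positive log2 difference, with a median of -0.10 against -0.00 over all genes. Some medians lay close together, as for Gstm1, with values of 315 in normal and 331 in diabetic early yolk sacs and 467 and 527 in later ones. Prdx2 had medians of 439 and 438 early and 652 and 618 late. Nfe2l2 had medians of 299 and 271 early and 291 and 286 late, and its later log2 difference was -0.01 (95% interval -0.19 to 0.17). The members with the lowest p were Gpx1 (log2 difference -0.29) and Sod1 (-0.32) early, and Gpx4 (0.42), Keap1 (0.21) and Gpx3 (0.33) late. All 36 intervals stayed inside 2-fold in either direction at both stages, and 33 of 36 inside 1.5-fold at the later one.

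The changes under diabetes were also compared between the tissues. No member passed the interaction test at 5 to 6 somite pairs (0 of 37, 2 with an unadjusted p below 0.05, 0% of 11677 genes called) or at 7 to 9 somite pairs (0 of 37, 10 with an unadjusted p below 0.05, 0.389% of 11577 genes called) with edgeR. At the later stage Prdx6 (-0.29, edgeR adjusted p = 0.061) and Prdx2 (-0.44, edgeR adjusted p = 0.070) came closest, and DESeq2 called these 2. By edgeR the rise of 9 members in later embryos was thus not shown to differ from the change in yolk sacs.

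The tissues themselves differed widely. In normal pregnancies with 5 to 6 somite pairs 24 of 37 members tested were higher in the yolk sac and 6 higher in the embryo (70.6% of all 10735 genes tested were called, 35.1% higher and 35.5% lower), and with 7 to 9 somite pairs 26 were higher and 4 lower (75.2% of 10660 genes, 35.7% higher and 39.5% lower). In diabetic pregnancies the counts were 25 and 8 early (70.9% of genes, 36.2% higher and 34.7% lower) and 25 and 6 late (72.8% of genes, 35.1% higher and 37.6% lower). Of the members tested 81.1% were called at either stage of normal pregnancies, near the share of all genes. Sod3, Mgst3 and Mgst1 passed the filter on low counts through 1 tissue alone, so they had to differ.

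Gstm1 had the lowest p of all members between the tissues. It ranged from 23.2 to 35.5 normalized counts with a median of 27.9 in early normal embryos and from 219 to 395 with a median of 315 in their yolk sacs, with no overlap. The log2 difference was 3.47 ± 0.09 early and 4.10 ± 0.13 late (edgeR adjusted p 3.0e-30 and 2.9e-27), and the yolk sac was higher in 17 of 17 and 16 of 16 normal conceptuses. Sod3, the extracellular superoxide dismutase, was all but confined to the yolk sac, with a median of 30.4 against 1.40 in early normal conceptuses and 65.5 against 1.59 in later ones. Mgst3, a membrane-bound transferase with peroxidase activity, followed with 36.3 against 2.47 and 64.6 against 3.53. The embryo means of these 3 were 3.91% to 8.87% of the yolk sac means. Gpx3, Glrx, Nfe2l2 and Hmox1 were also yolk sac transcripts, by 2.47, 2.47, 2.13 and 1.88 on the log2 scale early and 2.67, 3.04, 2.22 and 1.98 late (edgeR adjusted p 9.0e-12 or lower), and each was higher in the yolk sac of every conceptus. Nfe2l2 thus had medians of 299 in the early yolk sac and 68.5 in the early embryo.

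All 4 genes of glutathione synthesis and recycling were higher in the early normal yolk sac, from 0.31 for Gclc to 1.43 for Gclm on the log2 scale. So were Sod1 (0.65), Sod2 (0.70), catalase (0.39) and Gpx1 (1.30). Gpx4 was higher in the yolk sac by 1.27 early and 0.67 late in normal pregnancies and by 0.61 and 1.64 in diabetic ones. Keap1, the partner of Nrf2, was higher by 0.73 early. In contrast Txnrd1 differed little between the tissues, by 0.03 early and -0.06 late. Nqo1 stayed at medians of 1.01 to 3.14 in all 8 groups and Gstp1 at 1.23 to 6.82, so these 2 were outside every test. The counts of Gstp1 and Gpx4 are uncertain, because their 3′ ends have near copies elsewhere.

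A smaller set was higher in the embryo. Mgst1, a microsomal transferase, had a median of 27.8 normalized counts in early normal embryos and 2.06 in their yolk sacs, and the embryo was higher in all 66 conceptuses, with log2 differences for yolk sac against embryo of -3.48 ± 0.22 early and -3.34 ± 0.24 late in normal pregnancies. Gsta4 had medians of 188 and 78.4 early, a log2 difference of -1.23 ± 0.17 for yolk sac against embryo, and Gpx7 of 27.6 and 9.43, a difference of -1.38 ± 0.17. Gstm5 (-0.57) and Glrx3 (-0.33) leaned the same way, as did Prdx6 (-0.32). Of the 9 members called in later diabetic embryos, Gsta4 and Gpx7 were higher in the embryo of later normal conceptuses, Gstm1, Gss, Sod1, Txn2 and Prdx2 were higher in the yolk sac, and Glrx3 and Prdx6 passed in neither direction at that stage.

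**Figure D4:**
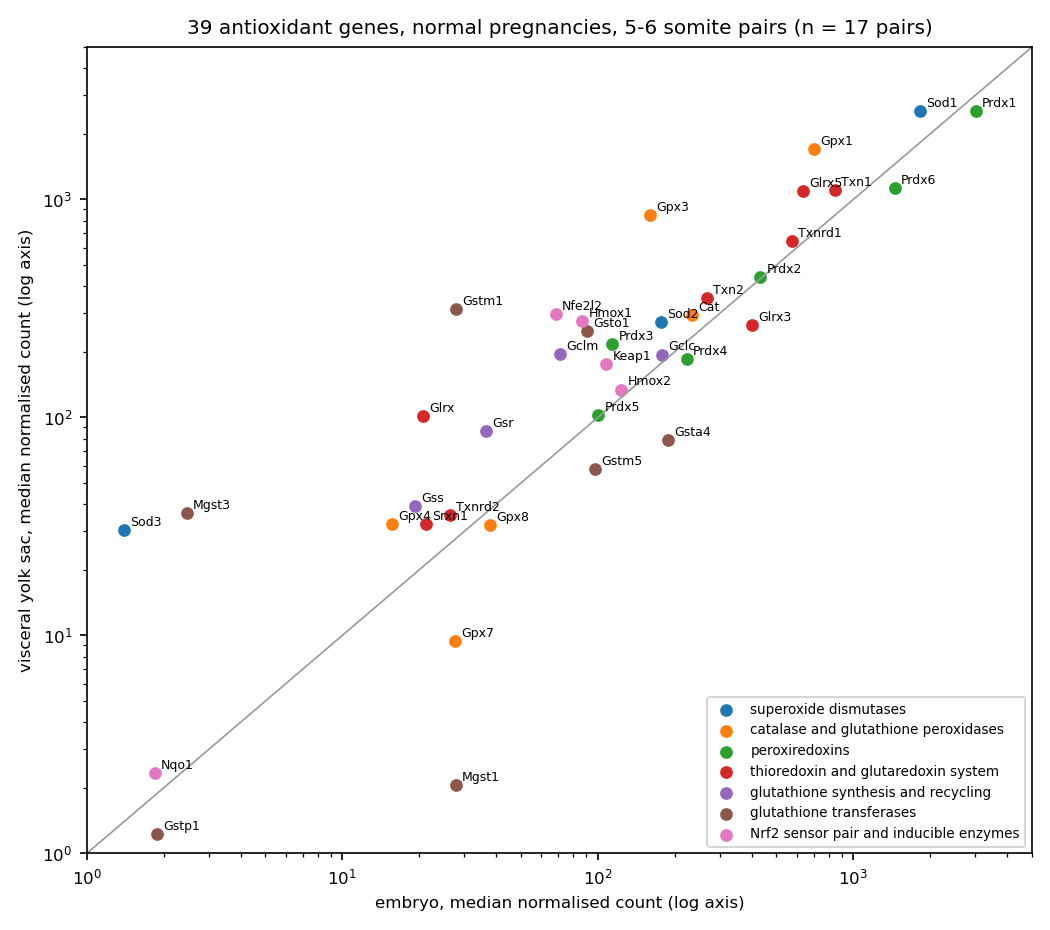
Median normalized count of each of the 39 members in early normal embryos (horizontal axis, log scale) and in the yolk sacs of the same 17 conceptuses (vertical axis, log scale), colored by role. Points above the line are higher in the yolk sac: Gstm1, Sod3, Mgst3, Gpx3, Glrx and Nfe2l2 lie far above it, and Mgst1, Gpx7 and Gsta4 below it.

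With stage, yolk sacs raised several members in both conditions. In normal pregnancies 6 of 35 tested members rose from 5-6 to 7-9 somite pairs and 0 fell (7.84% of 10013 genes called, 4.82% higher and 3.02% lower). Sod3 rose most, from a median of 30.4 (14.9 to 60.5) to 65.5 (36.8 to 108) normalized counts, by 1.04 ± 0.16 on the log2 scale (edgeR adjusted p = 0.00021). The others were Gstm1 (0.62), Gss (0.57), Prdx2 (0.53), Gpx3 (0.45) and Gsto1 (0.37). In diabetic pregnancies 15 of 36 rose and 3 fell (33.7% of 10469 genes called, 18% higher and 15.7% lower), and the same 6 were among those that rose, by 1.15, 0.70, 0.66, 0.56, 0.63 and 0.51. Of 31 other Nrf2 target and NADPH genes tested in the same comparison 7 rose and 3 fell. The 3 members that fell were Hmox1 (by 0.73 on the log2 scale), Txnrd1 (by 0.41) and Gclc (by 0.39). In normal yolk sacs their log2 differences were -0.43, -0.25 and -0.23 without passing, and no member passed the test of a difference between the conditions (0 of 36, 1 with an unadjusted p below 0.05, 0% of 10857 genes called).

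**Figure D5:**
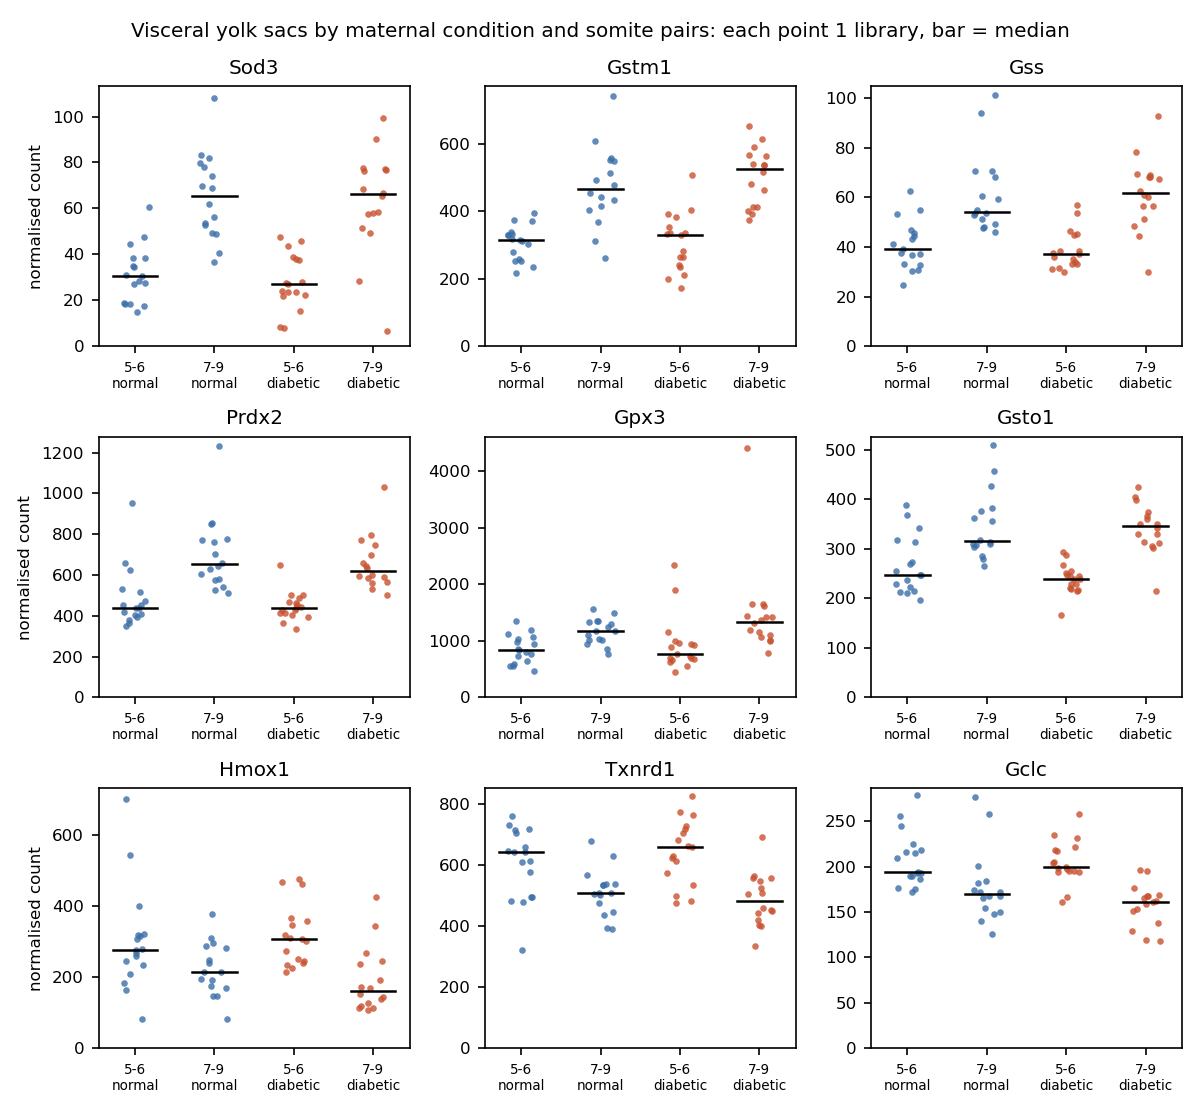
Normalized counts (vertical axes, starting at 0) of 9 members in the 66 yolk sac libraries, by maternal condition and somite pairs, with each point 1 yolk sac and each bar a group median. Sod3, Gstm1, Gss, Prdx2, Gpx3 and Gsto1 have higher medians at 7 to 9 than at 5 to 6 somite pairs in both conditions (Sod3: 30.4 to 65.5 in normal), whereas Hmox1, Txnrd1 and Gclc have lower ones.

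These changes with stage moved together with the makeup of the tissue. In normal yolk sacs the summed erythroid markers had a median of 8755 normalized counts early and 18350 late, and the summed visceral endoderm markers 22430 and 32280. With both marker means as covariates 0 of the 6 members passed in normal yolk sacs (edgeR, 0 of 10013 genes called) and 3 of 18 in diabetic ones. The part of cell composition in the changes with stage was not tested further. The conditions and stages share libraries between these comparisons, so their values are given side by side only.

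In embryos the stages differed in another way in the 2 conditions. In normal pregnancies 1 of 35 members rose from 5-6 to 7-9 somite pairs and 5 fell (15.1% of 10696 genes called, 6.13% higher and 8.97% lower). Gpx4 rose by 1.16 ± 0.26, from medians of 15.7 to 30.9 normalized counts. Prdx1 (-0.52), Hmox1 (-0.55), Prdx6 (-0.35), catalase (-0.31) and Sod1 (-0.30 on the log2 scale) fell. In diabetic pregnancies 11 of 35 rose and 3 fell (29.2% of 10711 genes called, 15.1% higher and 14% lower). Sod1 was among those that rose, by 0.34 ± 0.11 (edgeR adjusted p = 0.017), and Prdx6 did not pass, at -0.05. Prdx2, Gpx3, Gss and Gstm1 rose by 0.59, 0.73, 0.52 and 0.57, and Gclc, Txnrd1 and Nfe2l2 fell by 0.38, 0.34 and 0.30 on the log2 scale. In the same diabetic embryos all 6 heart markers (median log2 difference 0.85) and all 3 tested erythroid markers (median 5.04) rose with stage, and in normal embryos 2 of 6 (median 0.42) and 3 of 3 (median 3.33). With the visceral endoderm and erythroid marker means as covariates 1 member passed in normal and 6 in diabetic embryos, and the part of heart cells was not tested. With litter D24M15 left out, which supplied 7 of the 16 later diabetic embryos, 11 members passed in diabetic embryos.

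Some of the counts rest on 3′ ends that have near copies elsewhere (at least 97% identity over 75 bases). Prdx2 shares its end with the pseudogene Tdpx-ps1, which was given 5.3% as many counts, and Sod1 with Gm8566, at 0.199%. Glrx3 shares its end with Gm12669 (0.65%), and Sod2, Gpx4, Gstm1, Gstp1 and Prdx1 also have such copies. The match spanned 300 bases for Prdx2, for Prdx1, for Gpx4 (Gpx4-ps2) and for Gstp1 (Gstp2 and Gstp-ps). Gpx4-ps2 was not in the count table, and Gstp2 and Gstp-ps had 1.38% and 3.97% as many counts as Gstp1. Low counts of Gstp1 and Gpx4 may thus not mean low transcript levels. For Txn2 short stretches match the genes Adh5 and Itch, which had 91% and 22.8% as many counts as Txn2. Reads of these ends may have been split or dropped, and their values are uncertain to that extent.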

How the data were processed

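RNA of single embryos and visceral yolk sacs was sequenced at the 3′ end with unique molecular identifiers (UMIs). According to the study's processing notes, reads were aligned with STAR to mm10 and counted with HTSeq (versions not given in the sources used here), and the deposited table holds raw UMI counts per gene with no normalization. From these counts, genes passing filterByExpr (minimum count 10) were tested with the edgeR 4.0.16 quasi-likelihood test after TMM scaling, in R 4.3.3, with Benjamini-Hochberg adjustment over all genes tested and a threshold of 0.05. Only libraries of the groups compared entered each fit.

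Litter means of log2(normalized count + 1) were compared with an exact permutation test and adjusted over all genes. The alternatives used DESeq2 1.42.0, limma 3.58.1 and other filters, scalings, covariates and blocks. The totals of 1017901 to 5658850 counts limit the precision for low genes. Groups came from the sample labels, and 4 batch-control duplicates were left out. The labels of sex differed between embryo and yolk sac in 2 conceptuses. Embryo and yolk sac of a conceptus share its number. The median correlation of their deviations from the group means over the conceptuses was 0.102 at 5 to 6 and 0.045 at 7 to 9 somite pairs.

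The members and lists were chosen with earlier results of these data known. All members were described, with positions for those that rose in later embryos. Of the other pathway genes, up to 3 per list and direction were named by the rule, and Park7 was added after its value was seen.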

Additional observations from a re-analysis of the deposited data

Results flagged for a closer look

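For 7 members the change under maternal diabetes in embryos differed between the stages by the interaction test (edgeR adjusted p below 0.05), being more positive at 7 to 9 than at 5 to 6 somite pairs. On the log2 scale the difference was 0.68 for Gsta4, 0.62 for Sod1, 0.60 for Gstm1, 0.51 for Glrx3, 0.45 for Txn2, 0.44 for Hmox2 and 0.29 for Prdx6. For Hmox2 it joined a log2 difference of -0.32 in early embryos with one of 0.11 in later ones, neither of which passed the test alone. In the same test 2 of 6 heart markers were more positive at the later stage (median 0.48), and their part was not tested. Each embryo was counted as a sample, and counts summed per litter were not tried for this test.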

How the results depend on the processing

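In embryos with 7 to 9 somite pairs the 9 calls became 3 with the litter as a random block, 0 with counts summed per litter, 5 with length and GC trends removed and 0 with the heart marker covariate, and 6 to 11 when each litter was left out in turn. The other alternatives gave 6 to 12, and the causes were not tested. In embryos with 5 to 6 somite pairs the 0 calls became 1 with DESeq2, with the title number as a covariate and with length and GC trends removed, in each case Hmox2, and 0 to 3 with a litter left out (3 without litter N23M31, which were Hmox2, Glrx5 and Nfe2l2). Yolk sacs kept 0 calls at both stages in all alternatives, litters left out included. With the visceral endoderm and erythroid marker means as covariates the calls by stage went from 6 to 1 in normal embryos, from 14 to 6 in diabetic embryos, from 6 to 0 in normal yolk sacs and from 18 to 3 in diabetic yolk sacs, where Gpx1 (-0.13) and Glrx5 (-0.14) changed sign. The 7 differences between stages in embryos became 4 without the filter and 3 with length and GC trends removed, and the 0 differences between tissues at 7 to 9 somite pairs became 2 with DESeq2. Without litter D24M15 the calls by stage were 11 in diabetic embryos and 15 in diabetic yolk sacs, and 8 differences between stages were called in embryos. With the conceptus as a replicate block the tissue comparisons gave 30, 33, 30 and 31 calls, as without it, and the differences between tissues 0. The length and GC, heart and erythroid alternatives, and the stage fits without D24M15, were chosen after seeing the data. Low counts of Sod3, Mgst3, Gstp1 and Nqo1 in embryos limit what could be tested there.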
